A study of Homo sapiens with 4 samples.

Results

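The G1/S and DNA replication genes are a set of 48 human genes that act from the decision to enter S phase to the copying of DNA. Their rows were taken from the TPM tables (a length-corrected unit in which every library has the same sum) by gene symbol, and all 48 were found among the 20226 genes listed. Huh7 cells in which a short hairpin targets NUP210, called shNUP210 in the titles, were compared with Huh7 cells called shCon, a control hairpin by its title, whose genotype label is wild type. Each group had 2 libraries, and the treatment label of all 4 reads untreated. Huh7 is an established hepatocellular carcinoma line, so both groups share its cancer background. The hairpin sequence, the number of hairpins or clones and the time after knockdown are not given in the sources used here. Separate cultures are not mentioned for the libraries, so the p-values reflect how far libraries of a group differ, and that difference may be technical. The spread used for each gene is drawn in part from other genes at a like level.

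Cells license replication origins in G1 by loading the MCM2-7 helicase with the help of the origin recognition complex, CDC6 and CDT1. Cyclin D with CDK4 or CDK6, followed by cyclin E with CDK2, phosphorylates the RB protein and frees E2F factors, which drive transcription of most of the genes below. CDC45 and the GINS complex then join the helicase, and polymerases, the PCNA clamp and nucleotide enzymes carry out synthesis. In normal adult liver most hepatocytes rest outside this cycle, while hepatoma lines divide continuously.

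NUP210, which encodes a membrane glycoprotein of the nuclear pore, measured 10.1 and 9.85 TPM in shNUP210, against 32.8 and 27.3 TPM in shCon. Its log2 fold change was -1.49 (limma adjusted p = 0.0432), and that p was 0.162 to 0.167 when any library was left out. The 9 hepatocyte markers checked were all listed and summed to 15002 and 15218 TPM in shNUP210, against 19770 and 19289 TPM in shCon. APOA1, SERPINA1 and TF, 3 of the 9, were called lower, and 0 were called higher. Albumin (ALB) and alpha-fetoprotein (AFP) were not called, with log2 fold changes of 0.011 and 0.11. Of the 9 log2 fold changes 5 were positive and 4 negative. Of 5 fibroblast markers the 4 found summed to 36.2 and 19.2 TPM in shNUP210 and 10.7 and 15.2 TPM in shCon, and CD14, the single one found of 4 leukocyte markers, was at 3.82 to 9.56 TPM. Of 4 endothelial markers looked up, 0 were found. The part of these marker levels in the results below was not tested. Genes reaching 5 TPM in 2 or more libraries, 10140 in all, were tested with limma on log2(TPM + 1), and those with a Benjamini-Hochberg adjusted p under 0.05 were called. Over these genes the median log2 fold change was 0.23 in favour of shNUP210. Trimmed-mean scaling of the libraries brought that median to 0.0024. The changes below are not corrected for that shift and include it, unless a scaling is named.

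After NUP210 knockdown 3 of the 44 members tested rose and 0 fell: GINS4, a subunit of the GINS complex, CCND1, encoding cyclin D1, and TK1, encoding thymidine kinase 1. Among all tested genes 1.79% were called higher and 1.07% lower. At an unadjusted p under 0.05, 12 members were higher and 0 lower, against 18.4% and 5.95% of all tested genes. The median log2 fold change of the 44 members was 0.30, beside 0.23 over all tested genes. A positive fold change was found in 37 members, against 68.9% of all tested genes, and 7 were negative. Both shNUP210 libraries lay above both shCon libraries for 25 members and below both for 2, against 42.9% and 14.3% of all tested genes. The remaining 17 overlapped between groups. The 37, the 25 and the median include CCNE2, which passed the filter through its shNUP210 libraries alone and had to lie higher. The median of the set thus lay near the general shift, and a few members lay well above it.

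**Figure D1:**
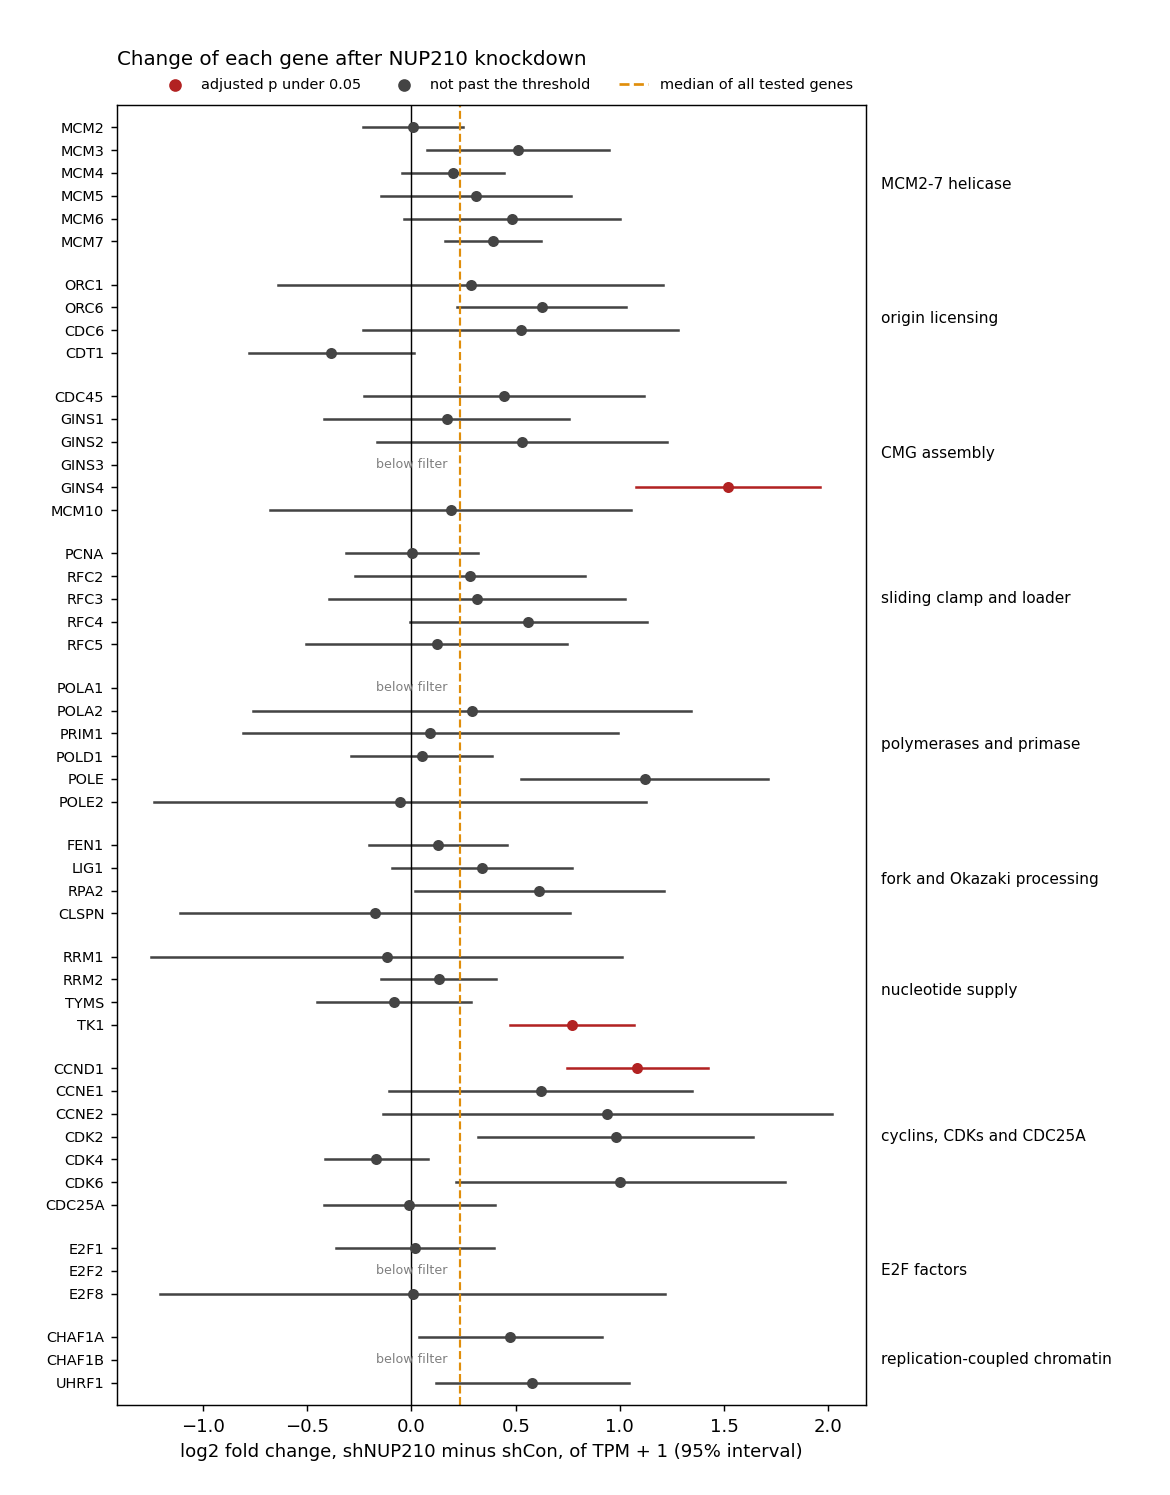
Log2 fold change of TPM + 1 (shNUP210 minus shCon, horizontal axis) for each gene, ordered by functional group, with its 95% interval from limma. GINS4, CCND1 and TK1 are in red, the dashed line is the median of all tested genes at 0.23, and most other intervals include that line.

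These counts depended on the fit. Under trimmed-mean scaling GINS4 (log2 fold change 1.28, adjusted p = 0.0293) and CCND1 (0.84, adjusted p = 0.0396) passed, while TK1 (0.52, adjusted p = 0.0833) did not. The number of members with a negative fold change was then 19 of 44, with a median of 0.068, beside 0.0024 over all tested genes. At an unadjusted p under 0.05 the members split into 5 higher and 3 lower under trimmed-mean or upper-quartile scaling, 5 and 2 under median-ratio scaling, and 7 and 1 after quantile normalization. Of all 10140 tested genes, 2145 were under that p in either direction with trimmed-mean scaling and 2205 with upper-quartile scaling. Median-ratio scaling gave 2143 and quantile normalization 1985. These totals were not split by direction, so the members' split under the scalings has no such background beside it. Over all genes trimmed-mean scaling called 76 higher and 252 lower, where TPM as deposited gave 181 and 109. Median-ratio scaling gave 77 and 250, upper-quartile scaling 66 and 279, and quantile normalization 87 and 118. The member calls were lost when any of the 4 libraries was left out (shNUP210 replicate 1 or 2, shCon replicate 1 or 2). The log2 fold change was then 1.49 to 1.55 for GINS4, 0.92 to 1.25 for CCND1 and 0.68 to 0.86 for TK1.

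Promoters show what these genes share in sequence. E2F factors bind a consensus that in its strict form reads TTTCCCGC, TTTGGCGC, TTTCGCGC or TTTGCCGC. In RefSeq promoter windows (GRCh38.p14, 250 bases before to 50 after a start site, searched on both strands), 40 of the 48 members had an entry, and 22 of these held at least 1 such match. That is 55.0% of the members, against 3.99% of all genes with a window. The members were chosen for their function, so this difference describes the set and is no result of the knockdown. Among tested members the median log2 fold change was 0.29 for the 19 with a match and 0.28 for the 17 without. The other 8 members, CCND1, GINS4, MCM4, MCM5, CCNE2, CDK2, E2F8 and RPA2, enter neither median, and GINS4 and CCND1 are among the 3 members called. The 4 windows that follow are of TK1 (called higher), POLE (largest fold change among members with a match), and MCM2 and PCNA (near-equal levels in both groups).
TK1 (chr17:78187003-78187302, minus strand): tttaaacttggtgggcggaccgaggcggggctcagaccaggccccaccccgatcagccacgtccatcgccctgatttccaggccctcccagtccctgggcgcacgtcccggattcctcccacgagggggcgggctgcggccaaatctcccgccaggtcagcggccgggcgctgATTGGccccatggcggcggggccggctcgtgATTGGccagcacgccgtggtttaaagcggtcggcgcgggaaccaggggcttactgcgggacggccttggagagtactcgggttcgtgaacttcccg
POLE (chr12:132687293-132687592, minus strand): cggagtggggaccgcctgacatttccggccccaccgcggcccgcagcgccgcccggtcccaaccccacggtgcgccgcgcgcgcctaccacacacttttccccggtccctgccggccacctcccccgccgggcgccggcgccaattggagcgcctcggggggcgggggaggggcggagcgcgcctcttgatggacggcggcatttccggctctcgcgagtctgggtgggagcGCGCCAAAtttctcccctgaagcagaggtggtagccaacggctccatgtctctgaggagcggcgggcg
MCM2 (chr3:127598161-127598460, plus strand): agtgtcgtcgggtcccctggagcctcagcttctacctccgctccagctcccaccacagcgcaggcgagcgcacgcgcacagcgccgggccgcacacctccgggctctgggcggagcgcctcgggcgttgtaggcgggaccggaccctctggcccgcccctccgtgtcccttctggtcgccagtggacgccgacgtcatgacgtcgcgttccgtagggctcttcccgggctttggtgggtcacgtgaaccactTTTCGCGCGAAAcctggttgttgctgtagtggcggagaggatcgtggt
PCNA (chr20:5126573-5126872, minus strand): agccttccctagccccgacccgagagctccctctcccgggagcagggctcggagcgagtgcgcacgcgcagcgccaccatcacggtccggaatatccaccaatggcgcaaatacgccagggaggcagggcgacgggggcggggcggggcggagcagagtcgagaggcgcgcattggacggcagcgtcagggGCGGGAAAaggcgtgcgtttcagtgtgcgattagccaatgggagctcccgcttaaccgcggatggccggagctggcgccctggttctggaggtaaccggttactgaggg
Capitals mark the E2F-type matches in POLE, MCM2 and PCNA. In MCM2 a plus-strand and a minus-strand match to TTTCGCGC overlap in a palindrome just after the start. Those in POLE and PCNA lie on the minus strand of the window, starting at -18 and -59 from the start site. RefSeq gives TK1 and PCNA more than 1 window each, of which 1 is printed, and for PCNA it was taken from those with a match. None of the TK1 windows held a strict form of the E2F consensus given above, and looser forms were not searched. The capitals in TK1 therefore mark a pair of CCAAT boxes on the minus strand (ATTGG as printed), the binding motif of NF-Y, at -77 and -46. CCAAT was found in 34.6% of all windows and in 56.9% of the members' windows. A match is a string of letters, and its use in these cells was not measured.

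The MCM2-7 helicase genes had 0 of 6 members called, with a median log2 fold change of 0.35. MCM7 was at 425 and 394 TPM in shNUP210, against 316 and 308 TPM in shCon (log2 fold change 0.39, SE 0.092, adjusted p = 0.0859). MCM3 was at 115 and 121 TPM in shNUP210, against 95.5 and 71.1 TPM in shCon (log2 fold change 0.51, adjusted p = 0.162). Neither overlapped between groups, and neither passed the threshold. MCM2 was at 302 and 279 TPM in shNUP210, against 288 and 291 TPM in shCon. Its log2 fold change of 0.0054 had a 95% interval of -0.23 to 0.25. MCM4, MCM5 and MCM6 had log2 fold changes of 0.20, 0.31 and 0.48 (adjusted p 0.229 to 0.344), with every shNUP210 library above every shCon library. Under trimmed-mean scaling MCM2 and MCM4 were negative, at -0.24 and -0.049.

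The 6 proteins form a ring with 1 copy of each, but their transcripts were far from equal. Mean TPM in shNUP210 ran from 26.9 for MCM6 and 82.9 for MCM5 to 409 for MCM7, and in shCon from 19.0 for MCM6 and 67.0 for MCM5 to 312 for MCM7. The MCM7 level was 15.6 and 14.8 times that of MCM6 in the shNUP210 libraries, against 15.6 and 17.3 times in the shCon libraries, so the imbalance was of like size in all 4. Exons of MCM7 overlap 392 bases of AP4M1 on the opposite strand, and reads there may be shared, since strand-specific counting is not stated. Summed over the 6 genes, the helicase took 1217 and 1174 TPM in shNUP210, against 1010 and 997 TPM in shCon. The summed level was 1.19 times the control mean without overlap, on TPM that include the shift of all genes. With 2 libraries per group the exact two-sided permutation test cannot give a p below 0.333, so none is given for sums or ratios.

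**Figure D2:**
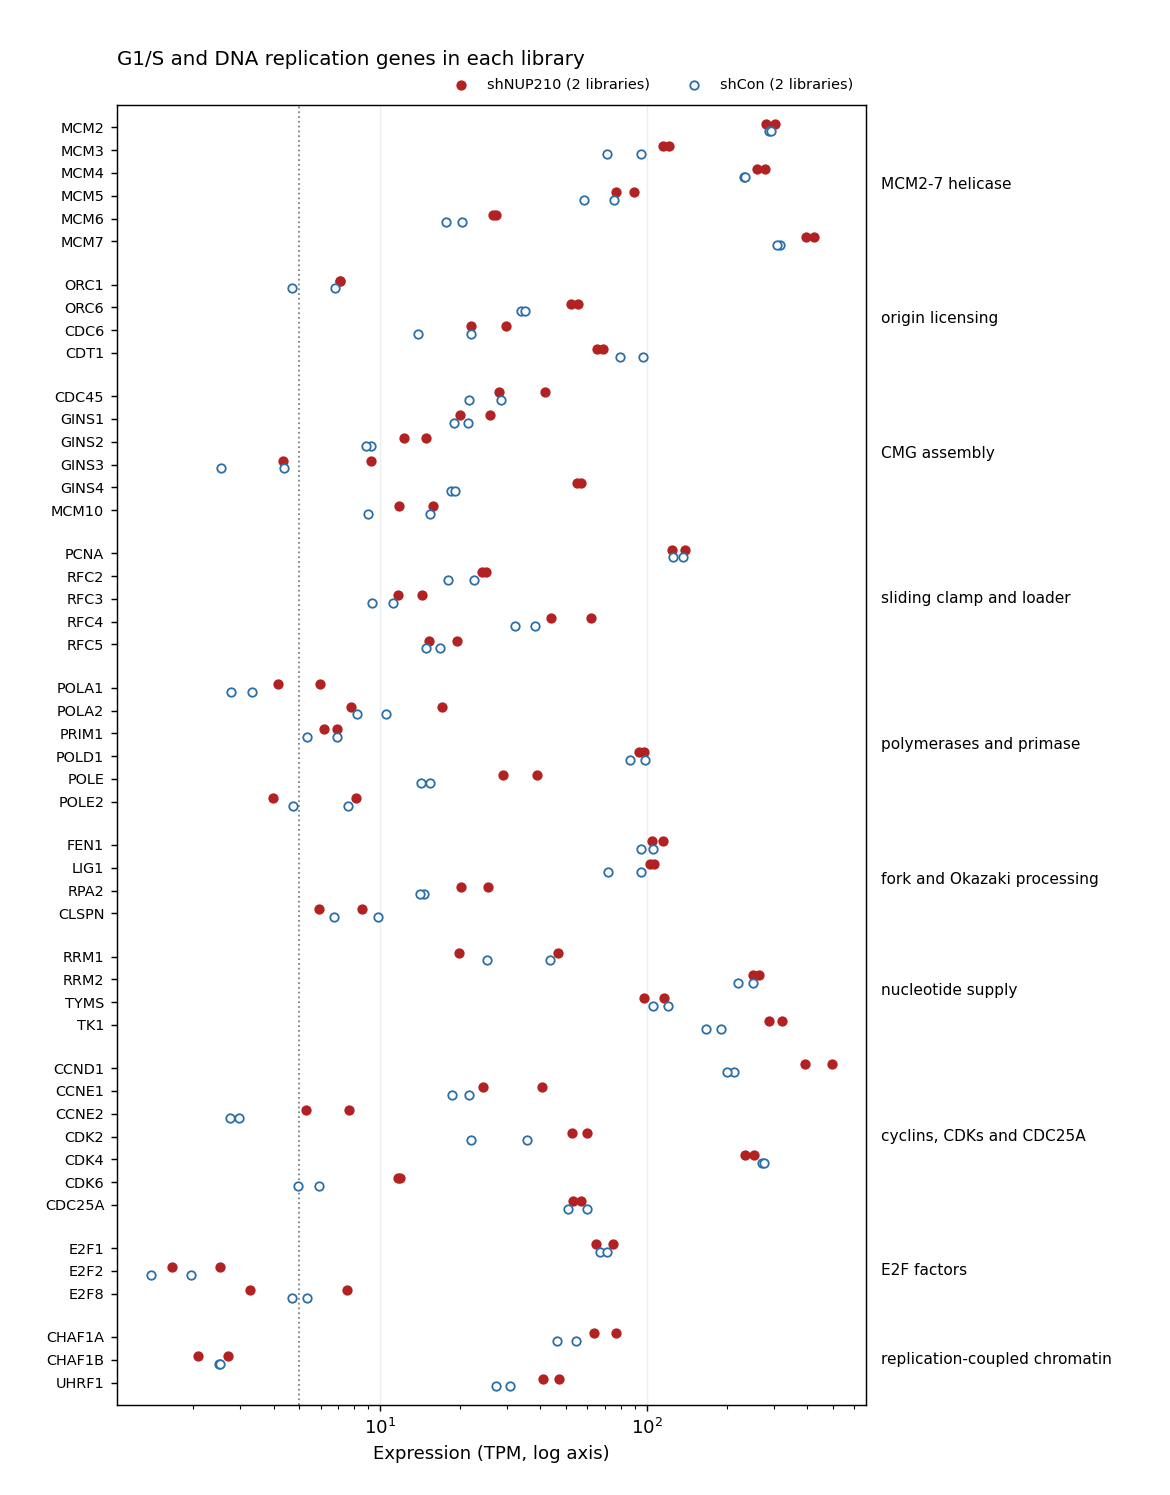
Expression of each gene in every library (TPM, log axis), with shNUP210 libraries as filled red points drawn above shCon libraries as open blue points. The dotted line marks 5 TPM, and GINS4, CCND1, TK1, POLE and CDK2 show wide gaps between the groups, while MCM2, PCNA and E2F1 interleave.

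Origin licensing genes had 0 of 4 called, with 3 positive log2 fold changes and 1 negative. ORC6, the smallest subunit of the origin recognition complex, was at 51.8 and 55.2 TPM in shNUP210, against 33.8 and 34.9 TPM in shCon (log2 fold change 0.62, adjusted p = 0.10). CDT1, which brings the helicase to origins and is destroyed once S phase begins, was at 68.7 and 65.3 TPM in shNUP210, against 97.2 and 79.2 TPM in shCon. Its log2 fold change of -0.39 (95% interval -0.78 to 0.011, adjusted p = 0.214) was the lowest of the 44. CDT1 and CDK4 were the members whose shNUP210 libraries both lay below the shCon libraries. ORC1, the ATPase subunit that marks origins, was at 7.08 and 7.12 TPM in shNUP210, against 6.79 and 4.68 TPM in shCon. CDC6, the helicase loader, was at 22.05 and 29.7 TPM in shNUP210, against 22.02 and 13.9 TPM in shCon, and its nearest libraries were almost equal.

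GINS4 gave the largest change of the 44 members. The gene (GRCh38 chromosome 8, 41529206 to 41545046, plus strand) encodes SLD5, a subunit of the GINS tetramer that joins CDC45 and the MCM ring into the active helicase. It was at 54.8 and 56.9 TPM in shNUP210, against 18.5 and 19.2 TPM in shCon. The groups were far apart and each pair of libraries was close. The mean was 2.97 times the control mean, with a log2 fold change of 1.52 (SE 0.18, adjusted p = 0.0247). Exons of GINS4 share 1159 bases with RP11-360L9.7 on the opposite strand, which was at 246 and 284 TPM in shNUP210, against 193 and 162 TPM in shCon (log2 fold change 0.58, adjusted p = 0.0871). That transcript is more abundant than GINS4 itself, so the level of GINS4 is uncertain where reads were shared.

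The other GINS subunits did not show a change of that size. GINS2 was at 12.3 and 14.9 TPM in shNUP210, against 9.30 and 8.85 TPM in shCon (log2 fold change 0.53, adjusted p = 0.298). GINS1 was at 25.8 and 19.98 TPM in shNUP210, against 21.4 and 18.9 TPM in shCon, with a log2 fold change of 0.17 and an interval of -0.42 to 0.76. GINS3 did not pass the expression filter, at 9.28 and 4.35 TPM in shNUP210 and 4.39 and 2.54 TPM in shCon. The ratio of GINS4 to GINS1 was 2.12 and 2.85 in the shNUP210 libraries, against 0.866 and 1.01 in the shCon libraries. GINS4 was thus near the level of GINS1 in control cells and above it after knockdown. CDC45 (27.9 and 41.5 TPM in shNUP210, against 21.6 and 28.4 TPM in shCon) and MCM10, which helps activate the helicase (15.8 and 11.8 against 15.4 and 9.07 TPM), overlapped between groups.

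The sliding clamp and its loader had 0 of 5 called. PCNA, the ring that tethers polymerases to DNA, was at 139 and 124 TPM in shNUP210, against 125 and 137 TPM in shCon (log2 fold change 0.0019, 95% interval -0.32 to 0.32). The groups interleaved, and trimmed-mean scaling placed PCNA at -0.24. RFC4 was at 43.6 and 61.9 TPM in shNUP210, against 32.0 and 38.0 TPM in shCon (log2 fold change 0.56, adjusted p = 0.209). RFC2 was at 25.1 and 24.2 TPM in shNUP210, against 22.5 and 18.05 TPM in shCon (adjusted p = 0.474). RFC3 and RFC5, further subunits of the clamp loader, had log2 fold changes of 0.31 and 0.12. PCNA was at 131 TPM in the mean of either group, well above the 4 loader subunits, which lay between 10.3 and 52.7 TPM.

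Of the polymerase and primase genes, 0 of 5 tested were called, and POLE came closest. POLE (chromosome 12, 132623753 to 132687365, minus strand), the catalytic subunit of the leading-strand polymerase epsilon, was at 38.7 and 28.9 TPM in shNUP210, against 14.2 and 15.5 TPM in shCon. Its mean was 2.27 times the control mean (log2 fold change 1.12, SE 0.239, adjusted p = 0.0724), and the adjusted p lay between 0.0719 and 0.248 over the alternatives tried. POLE2, the second subunit of the same enzyme, was at 3.98 and 8.15 TPM in shNUP210, against 7.61 and 4.71 TPM in shCon, a spread too wide to show a change of that size (95% interval -1.24 to 1.13). POLD1, the catalytic subunit of polymerase delta on the lagging strand, was at 93.3 and 97.3 TPM in shNUP210, against 98.2 and 86.3 TPM in shCon (log2 fold change 0.05, interval -0.29 to 0.39). The ratio of POLE to POLD1 was 0.415 and 0.296 in the shNUP210 libraries, against 0.145 and 0.179 in the shCon libraries, without overlap.

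The polymerase alpha and primase genes, whose enzyme starts each new strand, were low. POLA2 was at 7.83 and 17.0 TPM in shNUP210, against 8.24 and 10.5 TPM in shCon (adjusted p = 0.703). PRIM1 lay between 5.34 and 6.91 TPM in all libraries. POLA1, the catalytic subunit, did not pass the filter, at 5.98 and 4.14 TPM in shNUP210 and 3.32 and 2.77 TPM in shCon. The ranges of POLA2 and PRIM1 overlapped between groups.

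Fork and Okazaki fragment genes had 0 of 4 called. RPA2, a subunit of the protein that coats single-stranded DNA, was at 25.4 and 20.1 TPM in shNUP210, against 14.7 and 14.2 TPM in shCon (log2 fold change 0.61, adjusted p = 0.198). LIG1, the ligase that seals Okazaki fragments, was at 103 and 106 TPM in shNUP210, against 71.5 and 95.1 TPM in shCon (log2 fold change 0.34, adjusted p = 0.287). FEN1, the nuclease that trims their flaps, was at 115 and 105 TPM in shNUP210, against 95.6 and 106 TPM in shCon, and overlapped between groups. CLSPN, a checkpoint mediator at the fork, was at 5.90 and 8.56 TPM in shNUP210, against 6.72 and 9.88 TPM in shCon.

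TK1 was the called member of the nucleotide supply genes. Thymidine kinase 1 (chromosome 17, 78174075 to 78187233, minus strand), which salvages thymidine, was at 287 and 321 TPM in shNUP210, against 189 and 167 TPM in shCon. Both shNUP210 libraries were clearly above both shCon libraries. The mean was 1.71 times the control mean (log2 fold change 0.77, SE 0.12, adjusted p = 0.0423). TYMS, thymidylate synthase, which makes the same nucleotide by synthesis from dUMP, was at 116 and 97.7 TPM in shNUP210, against 106 and 120 TPM in shCon (log2 fold change -0.083, interval -0.45 to 0.29). The ratio of TK1 to TYMS was 2.48 and 3.28 in the shNUP210 libraries, against 1.79 and 1.39 in the shCon libraries.

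The ribonucleotide reductase genes were not called. RRM2, the regulated small subunit of the enzyme that makes deoxyribonucleotides, was at 251 and 264 TPM in shNUP210, against 220 and 250 TPM in shCon (log2 fold change 0.13, adjusted p = 0.502). RRM1, its large subunit, was at 46.7 and 19.8 TPM in shNUP210, against 25.3 and 43.4 TPM in shCon. Libraries of the same group differed more in RRM1 than the groups did, and its interval ran from -1.25 to 1.01. RRM2 exceeded RRM1 in every library, by 5.38 and 13.4 times in shNUP210 and by 8.72 and 5.77 times in shCon.

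Cyclins, their kinases and CDC25A had 1 of 7 called. CCND1 (chromosome 11, 69641087 to 69654474, plus strand), whose product cyclin D1 couples growth signals to CDK4 and CDK6, was at 493 and 391 TPM in shNUP210, against 213 and 200 TPM in shCon. Its mean was 2.14 times the control mean (log2 fold change 1.08, SE 0.14, adjusted p = 0.0295). CCND1 was the most abundant of the 48 members in shNUP210 cells and ranked 6 in shCon cells, where MCM7 led. Its exons overlap 497 bases of ORAOV1 on the opposite strand, which was at 30.1 and 33.6 TPM in shNUP210, against 20.7 and 25.0 TPM in shCon. CDK2, the partner of cyclins E and A, was at 52.7 and 59.7 TPM in shNUP210, against 35.7 and 21.9 TPM in shCon (log2 fold change 0.98, adjusted p = 0.109). The CDK2 groups did not overlap, but its log2 fold change ran from 0.64 without shCon replicate 2 to 1.32 without shCon replicate 1. Its exons share 565 bases with RP11-973D8.4 on the opposite strand, which was at 131 and 183 TPM in shNUP210, against 96.7 and 97.5 TPM in shCon.

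CDK4, CDK6 and the cyclin E genes, like MCM2, PCNA and the other members outside the 2 smallest p-values of each group, were picked for full values after those values were seen. CDK6 was at 11.7 and 11.9 TPM in shNUP210, against 4.92 and 5.94 TPM in shCon (log2 fold change 1.00, adjusted p = 0.143). CDK4 was at 233 and 252 TPM in shNUP210, against 271 and 275 TPM in shCon (log2 fold change -0.17, adjusted p = 0.343). CDK4 and CDK6 bind the same cyclins, and CDK4 was the main one in this line, at 19.9 and 21.1 times CDK6 in the shNUP210 libraries, against 55.0 and 46.3 times in the shCon libraries. CDK4 shares 1369 exon bases with TSPAN31 on the opposite strand. CCNE1 was at 24.3 and 40.5 TPM in shNUP210, against 21.6 and 18.7 TPM in shCon (log2 fold change 0.62, adjusted p = 0.258). CCNE2 was at 5.30 and 7.68 TPM in shNUP210, against 2.74 and 2.97 TPM in shCon (log2 fold change 0.94, adjusted p = 0.251). CCNE2 passed the filter through its shNUP210 libraries alone, so it had to lie higher in them, and it shares 1629 exon bases with INTS8 on the opposite strand. CDC25A, the phosphatase that activates CDK2, was at 56.5 and 52.9 TPM in shNUP210, against 50.8 and 59.7 TPM in shCon.

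**Figure D3:**
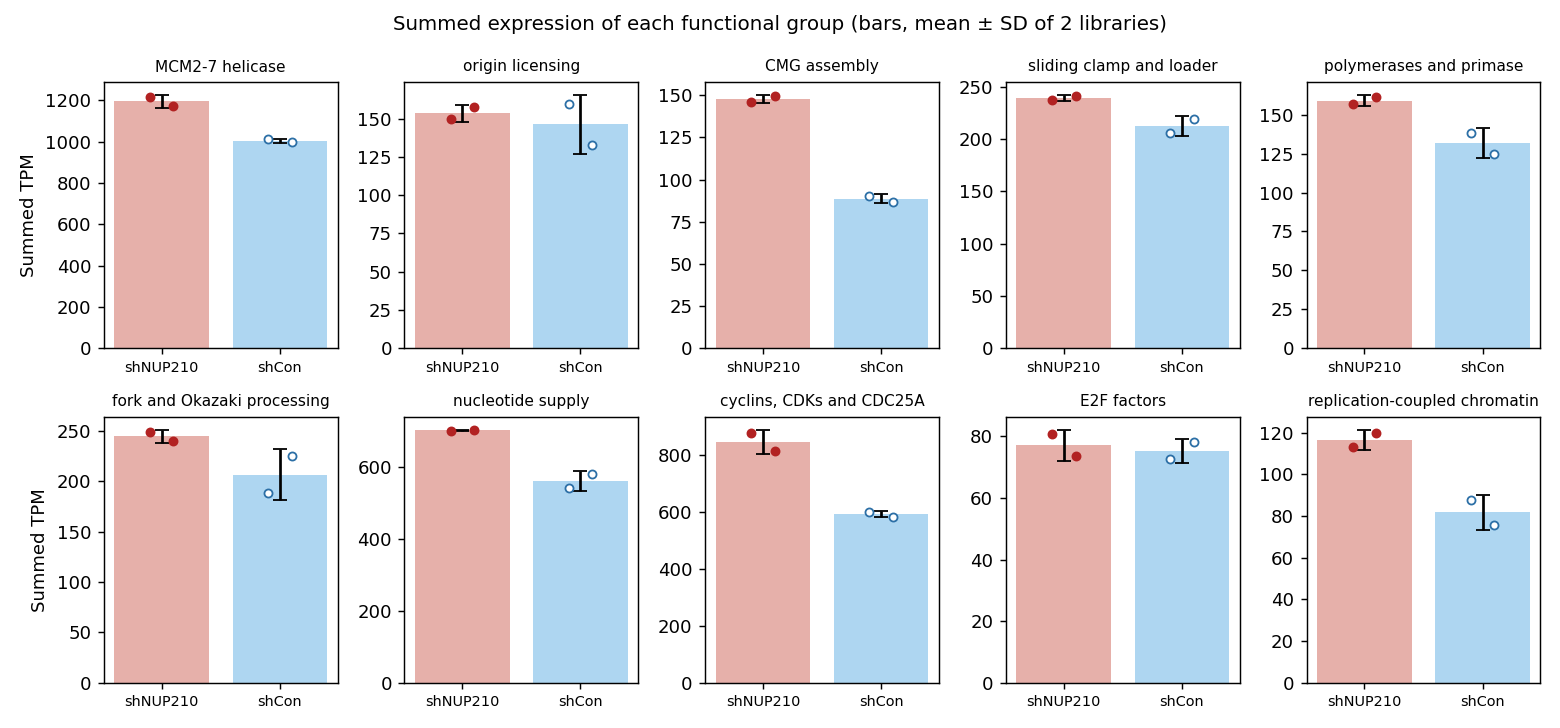
Summed TPM of each functional group (vertical axis from 0), with bars for the mean of 2 libraries, error bars for the SD and points for libraries, shNUP210 left of shCon. The sums of origin licensing and E2F genes overlap between groups, and the other 8 sums lie higher in both shNUP210 libraries. The sums are on TPM as deposited and include the shift of all genes.

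The E2F genes showed no called member. E2F1, an activator, was at 74.9 and 64.4 TPM in shNUP210, against 66.6 and 70.8 TPM in shCon (log2 fold change 0.017, interval -0.36 to 0.40). E2F8, an atypical repressor, was at 3.26 and 7.52 TPM in shNUP210, against 4.68 and 5.34 TPM in shCon. E2F2, another activator, was below the filter at 2.52 and 1.67 TPM in shNUP210 and 1.39 and 1.97 TPM in shCon. In each library E2F1 was the main E2F of these 3, and the groups interleaved for all of them.

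Chromatin genes of replication had 0 of 2 tested members called. UHRF1, which directs maintenance DNA methylation to new strands, was at 46.8 and 40.9 TPM in shNUP210, against 30.8 and 27.2 TPM in shCon (log2 fold change 0.58, adjusted p = 0.146). CHAF1A, the large subunit of the chromatin assembly factor that places histones on new DNA, was at 63.7 and 76.9 TPM in shNUP210, against 54.3 and 46.2 TPM in shCon (log2 fold change 0.48, adjusted p = 0.182). Neither overlapped between groups. CHAF1B, its partner, was below the filter, at 2.69 and 2.09 TPM in shNUP210 and 2.49 and 2.53 TPM in shCon.

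By complex, the summed level differed most for the genes of helicase activation. CDC45, MCM10 and the 4 GINS genes together took 146 and 149 TPM in shNUP210, against 90.5 and 86.9 TPM in shCon, 1.66 times the control mean. GINS4 makes up most of that gap, since its mean was 55.9 ± 1.5 TPM in shNUP210 and 18.8 ± 0.495 TPM in shCon (SD, n = 2 each). The cyclin and kinase genes summed to 877 and 816 TPM in shNUP210, against 600 and 584 TPM in shCon. The largest term was CCND1 in shNUP210 and CDK4 in shCon. Origin licensing genes summed to 150 and 157 TPM in shNUP210, against 160 and 133 TPM in shCon, and E2F genes to 80.7 and 73.5 TPM in shNUP210, against 72.6 and 78.1 TPM in shCon. All 48 together took 3926 and 3835 TPM in shNUP210, against 3094 and 3104 TPM in shCon, or 0.393 and 0.384% of the total against 0.309 and 0.310%. These sums are on TPM as deposited and include the shift of all tested genes, whose median log2 fold change was 0.23. Under trimmed-mean scaling the median of the 44 members was 0.068. The part of that shift in the sums was not tested. In bulk RNA, a larger share of cells in S phase and more of these transcripts per cell cannot be told apart.

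The log2 fold change varied with level over the whole table. Over all tested genes its median was 0.32 under 10 TPM, 0.31 between 10 and 20 TPM, 0.26 between 20 and 50 TPM, 0.18 between 50 and 100 TPM, 0.088 between 100 and 500 TPM and -0.065 above 500 TPM. The 11 members between 100 and 500 TPM, CCND1 and TK1 among them, had a median of 0.13, and the 13 members between 20 and 50 TPM, GINS4 among them, a median of 0.56. Both medians were above those of all genes at the same level. The members' median was below that of all genes under 10 TPM (0.091, 7 members), between 10 and 20 TPM (0.30, 6 members) and between 50 and 100 TPM (0.050, 7 members). The members under 10 TPM include CCNE2, which passed the filter through its shNUP210 libraries alone and had to lie higher. At low levels any gene can pass through the libraries of a single group, and the part of this in the medians was not tested. The median difference between replicate libraries of the 44 members was 0.20 on the log2 scale in shNUP210 and 0.18 in shCon, beside 0.26 and 0.27 for all tested genes.

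**Figure D4:**
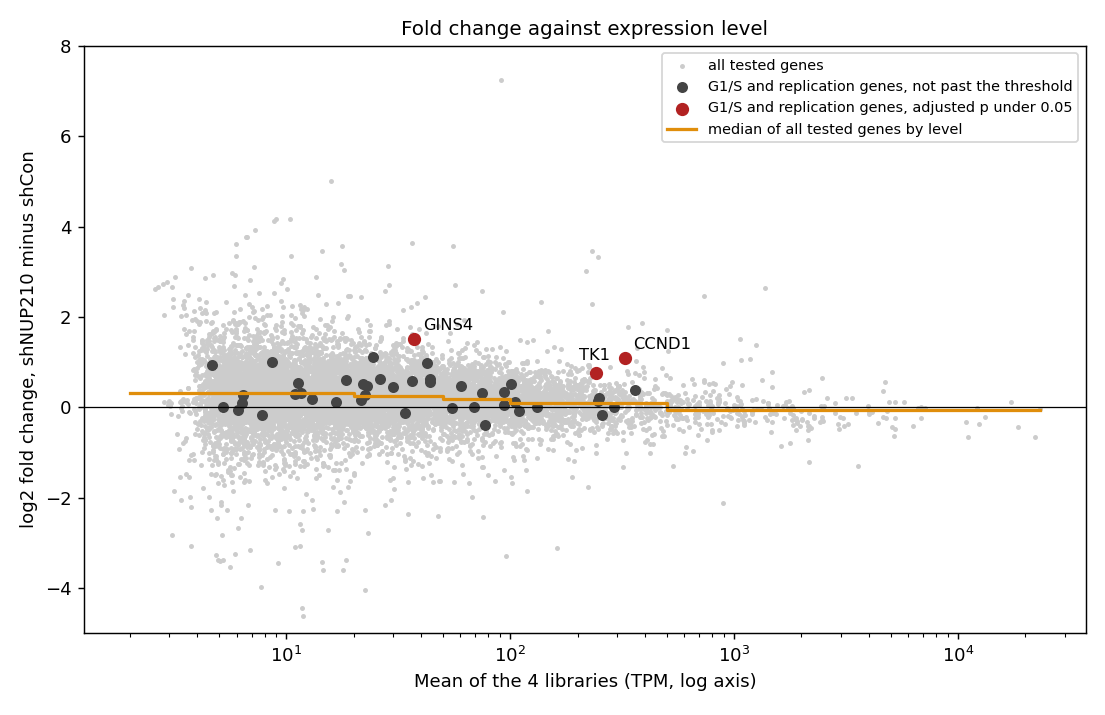
Log2 fold change (shNUP210 minus shCon) against the mean TPM of the 4 libraries (log axis) for all tested genes in grey, members in dark grey and called members in red. The orange steps are the median of all genes by level, which falls to -0.065 above 500 TPM, and GINS4, CCND1 and TK1 lie well above it.

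Other genes of the pathway were read from 5 lists chosen by function, with 80 genes found and 70 tested. Of these, 2 rose and 0 fell by limma, with a median log2 fold change of 0.31, and 13 were higher and 2 lower at an unadjusted p under 0.05. The median includes genes, named in the next paragraph, that passed the filter through their shNUP210 libraries alone. MTBP and CDKN2B of these are among the 13. Over all tested genes 1.79% were called higher and 1.07% lower, and 18.4% and 5.95% were higher and lower at that unadjusted p, so the lists' shares lay near the background. CDKN1C, encoding the CDK inhibitor p57, rose to 54.9 and 56.6 TPM in shNUP210, against 15.6 and 15.7 TPM in shCon (3.57 times the control mean, adjusted p = 0.0197). NASP, a chaperone of newly made histones, rose to 113 and 123 TPM in shNUP210, against 57.9 and 61.7 TPM in shCon (1.97 times, adjusted p = 0.0341). The NASP call was lost under trimmed-mean scaling (adjusted p = 0.061), and both calls were lost when any library was left out (adjusted p 0.120 to 0.161). The list of RB, E2F, cyclin and CDK inhibitor genes thus held 1 call among 20 tested, an inhibitor, beside the rise of cyclin D1.

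The other genes with the smallest p in these lists did not pass. SKP2, which targets the CDK inhibitor p27 for destruction, was at 109 and 128 TPM in shNUP210, against 80.6 and 67.0 TPM in shCon (adjusted p = 0.0864). SLBP, which binds histone mRNA, was at 71.4 and 83.9 TPM in shNUP210, against 61.4 and 60.0 TPM in shCon (adjusted p = 0.236). MTBP, a partner of the origin-firing factor TICRR, was at 14.5 and 6.31 TPM in shNUP210, against 2.36 and 1.49 TPM in shCon (adjusted p = 0.117). MTBP passed the filter through its shNUP210 libraries alone, as did ORC2, CDC7, RBL2, CDKN2B and MMS22L, so these genes had to lie higher in them. The origin gene RECQL4 and the clamp-loader gene CHTF18 had log2 fold changes of 0.75 and 0.61 (adjusted p 0.115 and 0.116). POLD2, the second subunit of polymerase delta, was at 192 and 200 TPM in shNUP210, against 297 and 243 TPM in shCon (log2 fold change -0.46, adjusted p = 0.118). POLD2 passed as lower under trimmed-mean scaling (-0.70, adjusted p = 0.0482). DUT, which clears dUTP, was at 31.6 and 33.7 TPM in shNUP210, against 45.4 and 54.4 TPM in shCon (adjusted p = 0.136), and NME1, a nucleoside diphosphate kinase, had an adjusted p of 0.281. The 6 tested nucleotide genes outside the members had a median log2 fold change of -0.058, the lowest of the lists.

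G2/M genes, which act later in the cycle, served as the nearest comparison. Of 22 genes 20 were tested, 0 were called, and 19 had a positive log2 fold change, with a median of 0.44 beside 0.30 for the G1/S and replication genes. BUB1B, a spindle checkpoint kinase, was at 45.5 and 70.9 TPM in shNUP210, against 26.6 and 21.0 TPM in shCon (adjusted p = 0.0747). TPX2, a spindle assembly factor, was at 75.1 and 76.3 TPM in shNUP210, against 44.7 and 33.8 TPM in shCon (adjusted p = 0.0657). At an unadjusted p under 0.05, 6 of the 20 were higher and 0 lower, against 18.4% and 5.95% of all tested genes, of which 68.9% had a positive fold change. The difference between the lists was not tested.

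**Figure D5:**
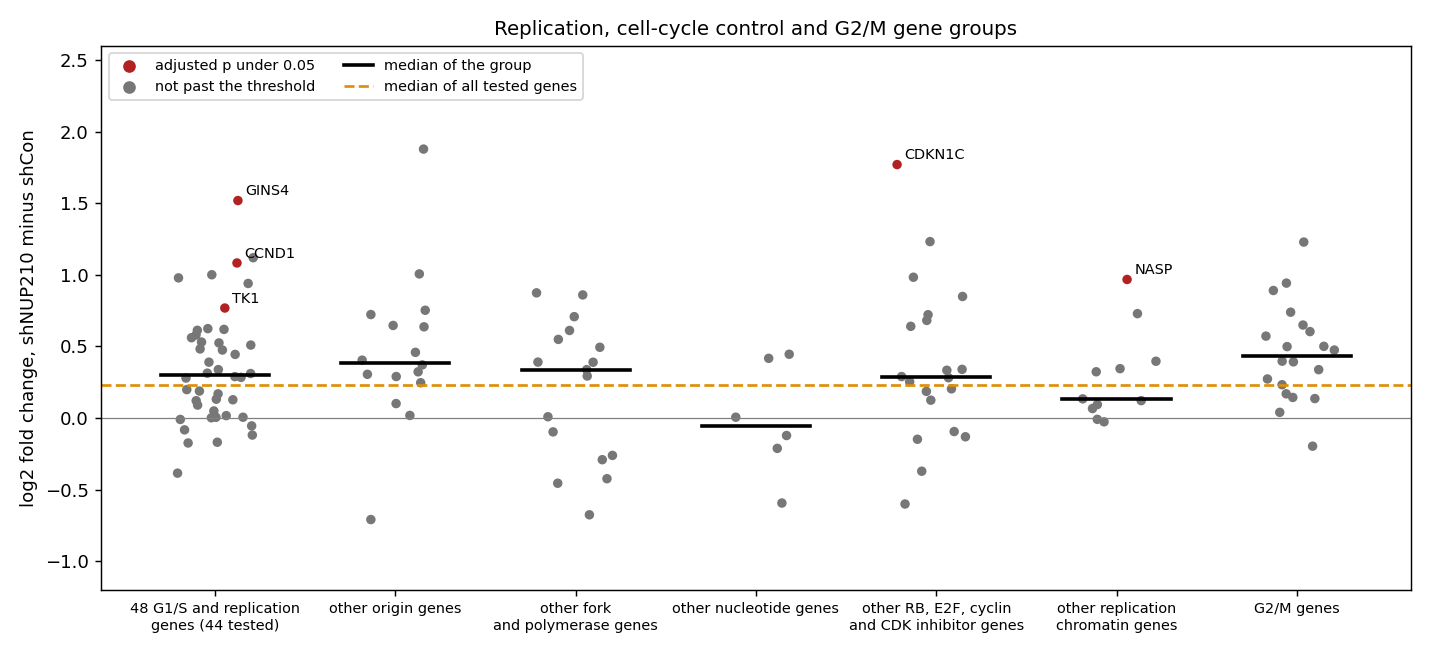
Log2 fold change (shNUP210 minus shCon, vertical axis) of each tested gene in the G1/S and replication set, 5 further lists of the pathway and the G2/M list, with a black line for the median and the dashed line for all tested genes. Called genes, in red, are GINS4, CCND1, TK1, CDKN1C and NASP, and the medians run from -0.058 to 0.44.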

How the data were processed

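RNA-seq of 4 Huh7 libraries was analysed, 2 shNUP210 and 2 shCon, grouped by title; total RNA was prepared with Trizol and TruSeq chemistry, per the labels' protocols. The deposited tables hold 1 TPM value per gene, made by the authors; their column totals gave the unit. The submitters' processing notes name Trimmomatic, STAR, RSEM, DESeq and hg38, with no versions. The annotation release and the strand setting are not given in the sources used here. TPM keeps no read depth, so no count test, counting interval or per-sample depth could be given. The fit was limma 3.58.1 (R 4.3.3) with a variance trend, applied to log2(TPM + 1) of genes at 5 TPM or more in 2 libraries, with two-sided p-values adjusted by Benjamini-Hochberg over 10140 genes. The fit was tested on simulated data. Levels and ratios were taken on TPM. The 48 members, the lists of other pathway genes and the named-gene rule were chosen with earlier results of these data known, and support nothing beyond description. By that rule all members are named, with values in every library for called members, for the 2 smallest p-values in each functional group and for members below the filter; in the other lists, called genes and the 2 smallest p-values are named. Positions and exon overlaps come from GENCODE release 29, which held 47 of the 48 gene IDs (not that of UHRF1). RefSeq promoter windows (GRCh38.p14) were found for 40 members. Alternatives were 4 scalings, 3 filters, 2 pseudocounts, 2 variance models, leaving out each library and a replicate block. Same-numbered libraries of the groups deviated from their group means with a correlation of 0.0231 across genes, so the numbers were not taken to pair them.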

Additional observations from a re-analysis of the deposited data

How the results depend on the processing

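With 2 libraries per group the calls were fragile. Where the reported fit called 290 genes, 57 were called when 1 TPM in 2 libraries sufficed, 15 with no filter, 0 without the variance trend (2290 at an unadjusted p under 0.05) and 63 with the replicate block. Members called were 3 of 44 in the reported fit, 0 of 48 with no filter, 0 of 48 with 1 TPM in 2 libraries and 0 of 44 without the trend. In each of these settings 12 were higher and 0 lower at an unadjusted p under 0.05. In either direction, 2469 of all 10140 tested genes were under that p in the reported fit. With no filter 2977 of 20221 were, and with 1 TPM in 2 libraries 2952 of 14576. The replicate block gave 1 (CCND1, adjusted p = 0.0423), with 11 higher and 0 lower at an unadjusted p under 0.05. Of all 10140 tested genes 2339 were under that p in either direction with the block. Members called stayed at 3 with 1 TPM in all 4 libraries, with either pseudocount and with a robust variance prior, and were 2 under each scaling. Other pathway genes called numbered 2 in the reported fit, 1 after quantile normalization and 1 with 1 TPM in 2 libraries. They numbered 0 with no filter, 0 without the trend and 0 with the replicate block, and 2 in the other settings that kept all 4 libraries. Leaving out 1 library gave 4 to 27 calls over all genes, 0 members and 0 pathway genes. The cause was not tested, though a lone library leaves fewer degrees of freedom.

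The log2 fold changes of the called members and of NUP210 kept their sign in every alternative. Small ones turned negative: with trimmed-mean scaling MCM2 -0.24, MCM4 -0.049, GINS1 -0.069, MCM10 -0.041, PCNA -0.24, RFC5 -0.11, PRIM1 -0.12, POLD1 -0.20, FEN1 -0.12, RRM2 -0.12, E2F1 -0.23 and E2F8 -0.20; with median-ratio scaling MCM2 -0.24, MCM4 -0.044, GINS1 -0.063, MCM10 -0.036, PCNA -0.24, RFC5 -0.11, PRIM1 -0.12, POLD1 -0.19, FEN1 -0.11, RRM2 -0.11, E2F1 -0.22 and E2F8 -0.20; with upper-quartile scaling MCM2 -0.29, MCM4 -0.10, GINS1 -0.12, MCM10 -0.087, PCNA -0.29, RFC2 -0.0057, RFC5 -0.16, PRIM1 -0.17, POLD1 -0.25, FEN1 -0.17, RRM2 -0.17, E2F1 -0.28 and E2F8 -0.24; with quantile normalization MCM2 -0.047, ORC1 -0.028, GINS1 -0.11, MCM10 -0.10, PCNA -0.11, RFC5 -0.18, POLA2 -0.0034, PRIM1 -0.22, POLD1 -0.10, FEN1 -0.018, E2F1 -0.16 and E2F8 -0.30. With pseudocounts of 0.1 and 0.5, E2F8 was at -0.011 and -0.0023. The median of all tested genes was 0.25 and 0.24 with these pseudocounts. It was 0.0024 with trimmed-mean, 0.0075 with median-ratio and -0.044 with upper-quartile scaling, and 0.010 after quantile normalization. Apart from quantile normalization, each scaling applies a single factor per library. The shift itself varied with level, from 0.32 under 10 TPM to -0.065 above 500 TPM. Leaving out 1 library gave ranges that cross 0 for MCM2 -0.052 to 0.063, GINS1 -0.0079 to 0.35, MCM10 -0.16 to 0.54, PCNA -0.080 to 0.083, RFC5 -0.043 to 0.28, POLA2 -0.23 to 0.80, PRIM1 -0.067 to 0.25, POLD1 -0.043 to 0.14, POLE2 -0.49 to 0.38, CLSPN -0.42 to 0.073, RRM1 -0.72 to 0.48, TYMS -0.20 to 0.038, CDC25A -0.13 to 0.11, E2F1 -0.091 to 0.12 and E2F8 -0.49 to 0.51.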
